A study of Rattus norvegicus with 24 samples.

Results

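The 8 genes described here are regulators of growth arrest and of the response to damaged DNA: Cdkn1a, Cdkn1c, Gadd45a, Gadd45b, Gadd45g, Mdm2, Btg2 and Ccng1. They were taken by gene symbol from a table of 20027 transcripts that belong to 15273 gene symbols, and the 12 transcripts found for them were summed to 1 value per gene. All 8 genes were in the table and all 8 had a normalized value of at least 1 in at least 3 muscles, the filter applied to every gene. Tibialis anterior, the main dorsiflexor of the ankle, came from 12 male Wistar rats in which an implanted pulse generator drove daily resistance training of the left hind limb by nerve stimulation. In this SpillOver model the stimulated dorsiflexors work against the co-contracting plantarflexors, which supply the load. The groups were trained for 2, 10, 20 or 30 days, with 3 rats each, and muscles were taken an hour after the last session. The right tibialis anterior of the same rat was not stimulated and served as the contralateral control, so all 24 muscles came from operated animals and every trained muscle had been exercised on the day of sampling. An effect of training and an effect of the last session therefore cannot be told apart within a group.

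Cdkn1a (p21) and Cdkn1c (p57) are inhibitors of cyclin-dependent kinases that hold cells in the resting phase of the cell cycle. In muscle they are best known from the withdrawal of myoblasts from the cycle before fusion. Gadd45a, Gadd45b and Gadd45g encode small acidic stress proteins that bind PCNA and the kinase upstream of p38, and Gadd45a is known to rise in denervated and immobilized muscle. Btg2 is an antiproliferative adaptor of the CCR4-NOT deadenylase, Mdm2 is an E3 ubiquitin ligase, and Ccng1 (cyclin G1) is an atypical cyclin that acts on Mdm2. Cdkn1a, Gadd45a, Btg2, Mdm2 and Ccng1 are textbook genes of the response to DNA damage.

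The values are of TPM type, that is scaled for transcript length and to a common total per sample, and they were rescaled here by median-of-ratios factors between 0.778 and 1.137. They are called normalized values below. The transcript table keeps no depth, but the values of the accompanying gene-level table fall on steps from which reads could be recovered for 4615 genes, and these added up to 5219760 to 8871832 reads per muscle (median 7721771). Of the 192 values of the 8 genes, 161 lay within 0.05 reads of a whole number (83.9%). The thinnest coverage was that of Cdkn1c, with 15 to 197 reads per muscle (median 37), followed by Gadd45b with 25 to 294 (median 83) and Cdkn1a with 43 to 390 (median 87). Ccng1 had 8761 to 17123 reads. Most of its values did not lie within 0.05 reads of a whole number, so that check does not cover its read numbers. Summed markers of muscle fibres reached 63164 to 75588 in the 12 contralateral muscles, and 7 of the 8 listed fibre markers were in the table. The tissue is bulk muscle, in which fewer cells of a type and less RNA per cell cannot be told apart.

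Reference promoters of RefSeq on the newer assembly GRCr8, each covering 250 bases before to 50 bases after the annotated start, were found for 7 of the 8 genes. The 3 shown carry the motifs named next. They are those of Btg2 (chr13:48087641-48087940, minus strand) and Gadd45b (chr7:9430669-9430968, minus strand), which were called higher in trained muscle at every time point, and of Gadd45g (chr17:13530302-13530601, minus strand), which was called higher at 0 of the 4. Capitals mark a full cAMP response element in Btg2 and an E-box in Gadd45b and Gadd45g, read 5′ to 3′.
Btg2: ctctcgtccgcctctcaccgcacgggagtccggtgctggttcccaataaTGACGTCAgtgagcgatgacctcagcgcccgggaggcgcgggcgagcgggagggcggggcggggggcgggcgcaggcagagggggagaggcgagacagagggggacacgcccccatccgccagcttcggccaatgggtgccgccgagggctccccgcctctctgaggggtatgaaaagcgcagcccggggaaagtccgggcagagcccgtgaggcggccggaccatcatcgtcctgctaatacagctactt
Gadd45b: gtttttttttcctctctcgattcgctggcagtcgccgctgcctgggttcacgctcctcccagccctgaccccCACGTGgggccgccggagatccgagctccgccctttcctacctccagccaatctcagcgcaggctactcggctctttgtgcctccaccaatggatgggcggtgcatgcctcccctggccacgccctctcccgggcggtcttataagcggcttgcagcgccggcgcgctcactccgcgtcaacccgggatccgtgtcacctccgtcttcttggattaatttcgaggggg
Gadd45g: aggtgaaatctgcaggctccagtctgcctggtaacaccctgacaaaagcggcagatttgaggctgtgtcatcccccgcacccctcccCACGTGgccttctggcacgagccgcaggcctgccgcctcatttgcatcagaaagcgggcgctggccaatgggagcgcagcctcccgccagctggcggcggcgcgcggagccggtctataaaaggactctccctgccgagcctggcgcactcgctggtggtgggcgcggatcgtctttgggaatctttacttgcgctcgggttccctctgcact

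Both strands were searched in 33469 rat promoters of this length. The full element TGACGTCA was found in 1.83% of them and among the 7 promoters in that of Btg2 alone. The E-box CACGTG, held by 6.42% of all promoters, was found in those of Gadd45b and Gadd45g. The AP-1 motif TGANTCA (7.33% of all) was found in 0 of the 7, and the CArG box of serum response factor (1.64% of all) also in 0 of the 7. These letters describe the window alone.

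Each trained group was set against the 12 contralateral muscles in 1 limma fit over 11196 genes, with Benjamini-Hochberg adjustment over all of them and a threshold of 0.05. After 2 days 3 of the 8 genes were higher in trained muscle (Btg2, Gadd45a and Gadd45b) and 0 were lower, where 15.4% of all tested genes were called higher and 13.5% lower. After 10 days 4 were higher, the same genes and Cdkn1c, and 0 lower, with 15.6% and 13.3% of all genes called. After 20 days 3 were higher (Btg2, Gadd45b and Cdkn1c) and 2 lower (Mdm2 and Ccng1), with 11.7% and 9.64% of all genes called. After 30 days 3 were higher, again Btg2, Gadd45b and Cdkn1c, and 2 lower (Gadd45g and Mdm2), with 11.1% and 9.46% of all genes called. The median log2 fold change of the 8 genes was 0.671, 0.626, -0.385 and -0.158 at the successive time points, beside medians of -0.014, -0.029, -0.029 and -0.006 over all genes. On the values as deposited, without rescaling, the medians over all genes were 0.074, 0.069, -0.029 and -0.181. The 4 comparisons share their control muscles and are not independent of each other. Fold changes are on the scale of log2(normalized value + 1), which understates the change of genes with low values.

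**Figure D1:**
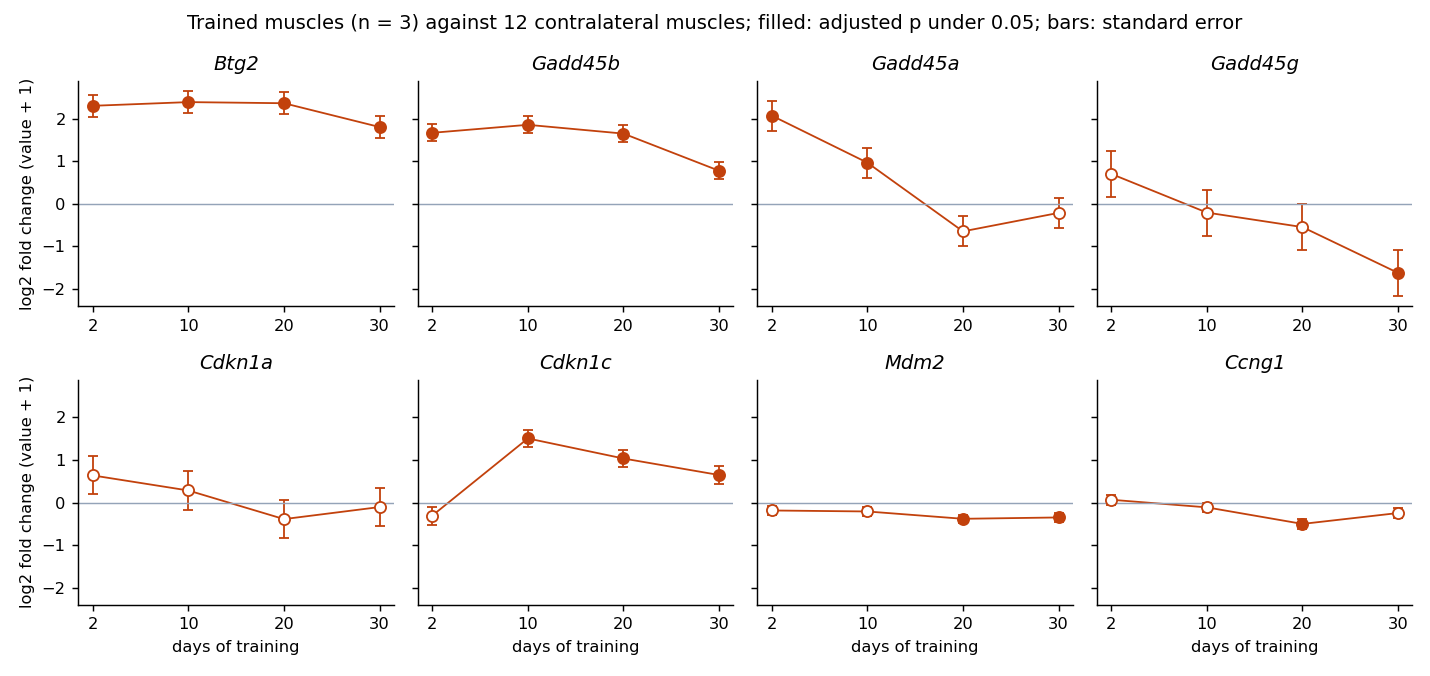
Log2 fold change (vertical axis, log2 of the normalized value + 1) of each gene in trained muscles against 12 contralateral muscles after 2, 10, 20 and 30 days (horizontal axis, not to scale), with standard errors from the limma fit as bars and filled points where the adjusted p was under 0.05. Btg2 and Gadd45b are filled at all 4 time points, Gadd45a at 2 and 10 days, Cdkn1c from 10 days on, and Cdkn1a at none.

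Btg2, which recruits the CCR4-NOT deadenylase and slows entry into S phase, showed the largest log2 fold change of the 8 genes at every time point. Its normalized value in the 12 contralateral muscles lay between 8.23 and 21.2, with a median of 12.2. The trained muscles held 70.5, 54.8 and 78.7 after 2 days, 84.7, 89.8 and 48.0 after 10 days, 76.7, 89.1 and 50.4 after 20 days, and 51.5, 75.6 and 27.01 after 30 days. Every one of the 12 trained muscles was thus above the highest contralateral muscle, and the lowest of them was replicate 3 of the 30-day group. The log2 fold changes were 2.30, 2.39, 2.36 and 1.81 with a standard error of 0.25 at each time point, or 4.94-, 5.25-, 5.15- and 3.50-fold on this scale. The adjusted p-values of the limma fit were 2.97e-07, 1.52e-07, 2.99e-07 and 2.01e-05. With any 1 of the muscles left out, the log2 fold change stayed between 2.19 and 2.45 at 2 days and between 1.47 and 2.20 at 30 days, and all 15 of these fits called the gene at each time point. The transcript lies on chromosome 13 of Rnor_6.0, from 50913180 to 50916983 on the minus strand, and no other transcript of the table overlaps it.

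**Figure D2:**
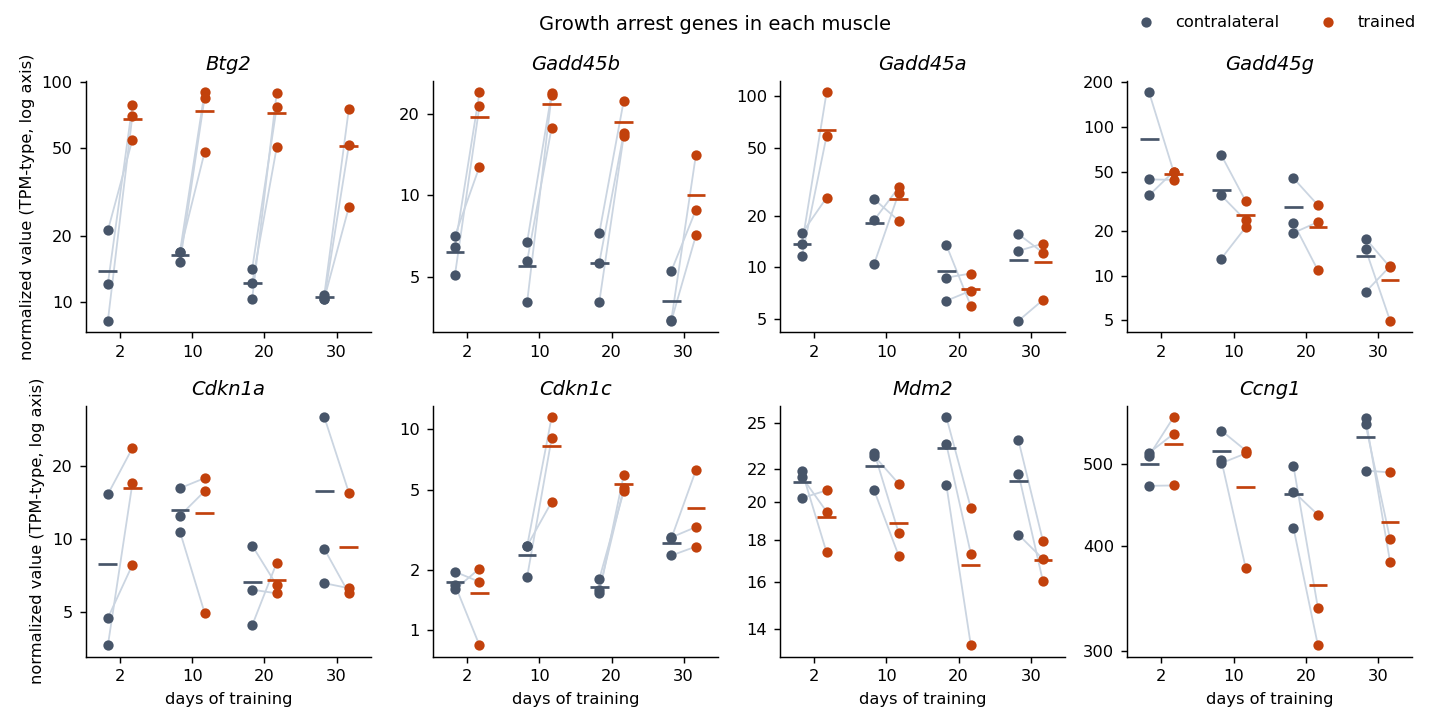
Normalized value (TPM-type, log axis) of each gene in every muscle after 2, 10, 20 and 30 days, with contralateral muscles in grey, trained muscles in orange, a line joining the muscles of 1 rat and a bar at the mean of each group of 3. Trained muscles lie above all contralateral muscles in Btg2 at every time point, whereas in Cdkn1a and Gadd45g the 2 kinds of muscle overlap widely, with Gadd45g at 4.97 to 50.1 in trained and 7.74 to 170 in contralateral muscles.

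Gadd45b, the GADD45 gene best known as a target of NF-kappaB, behaved like Btg2 at a lower level. Contralateral muscles held 3.44 to 7.24 (median 5.44). Trained muscles held 21.4, 23.96 and 12.8 after 2 days, 23.4, 23.8 and 17.8 after 10 days, 16.98, 22.4 and 16.6 after 20 days, and 14.1, 7.11 and 8.84 after 30 days. All trained muscles up to 20 days were above every contralateral muscle, and after 30 days 2 of 3 were, with replicate 2 inside the control range. The log2 fold changes were 1.67, 1.86, 1.65 and 0.78 (standard error 0.20), with adjusted p-values of the limma fit of 1.3e-06, 2.37e-07, 2.15e-06 and 0.00791. The 30-day call was lost without 30 days trained replicate 1, with a log2 fold change of 0.53 and adjusted p of 0.119 in limma, and on the values as deposited, with 0.58 and adjusted p of 0.066. Setting each trained muscle against its own contralateral muscle with the animal as a block gave 1.09 at 30 days, with adjusted p of 0.00909 in limma. The gene lies on chromosome 7, from 11646269 to 11648323 on the minus strand.

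Gadd45a, the founding member of the family and a gene induced by ATF4, passed the test early in training and not later. Contralateral muscles held 4.86 to 24.9 (median 12.9). After 2 days the trained muscles held 25.4, 105 and 58.4, so that all 3 were above the highest contralateral muscle, although replicate 1 exceeded it by little and replicate 2 was about 4 times replicate 1. The log2 fold change was 2.07 (standard error 0.35), with adjusted p of 8.49e-05 in limma, and it stayed between 1.60 and 2.60 with any 1 muscle left out. After 10 days the trained muscles held 29.2, 27.04 and 18.7, of which 2 lay above all contralateral muscles. That difference of 0.97 (standard error 0.35, adjusted p of 0.0401 in limma) was close to the threshold. Compared within rats (animal as a block) it was 0.50, with adjusted p of 0.382, and 2 of 3 rats had the higher value in the trained muscle. It was also lost with a pseudocount of 0.1, with no filter on low values and with any of 5 muscles left out, namely 10 days trained replicates 1 and 2, 10 days contralateral replicate 2 and 20 days contralateral replicates 1 and 2. The adjusted p without them was 0.173, 0.136, 0.0513, 0.0539 and 0.0541. After 20 days the values were 7.28, 9.17 and 5.91, and after 30 days 6.43, 12.1 and 13.7, all inside the control range. The log2 fold changes of -0.65 and -0.21 did not pass the test (adjusted p of 0.208 and 0.726). The 95% interval of the 30-day difference ran from -0.94 to 0.51.

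Gadd45g, the third member, had the widest spread of the 8 genes in muscles that were not trained. Contralateral muscles held 7.74 to 170 (median 28.6), with the highest value in 2 days contralateral replicate 2. In order of time the means of the contralateral groups were 83.1 ± 75.7, 37.4 ± 25.9, 29.1 ± 14.1 and 13.5 ± 5.18 (SD, n = 3 each). Those of the trained groups were 48.0 ± 3.42, 25.4 ± 5.46, 21.2 ± 9.57 and 9.30 ± 3.75. Group means were thus lower at each later time point in both limbs. Against all 12 contralateral muscles the log2 fold changes were 0.71, -0.20, -0.54 and -1.62 (standard error 0.54), and only the last passed, with adjusted p of 0.0345 in limma. Against the contralateral muscles of the same rats the 30-day difference was -0.50 with adjusted p of 0.494 in the limma fit with an animal block, and 1 of the 3 rats had the higher value in the trained muscle. The 30-day call was also lost without any 1 of the 3 trained muscles, with adjusted p between 0.0606 and 0.204, with no filter (0.0513) and with voom on reads of the gene-level table (0.0554). In a limma F test over the 4 contralateral groups the unadjusted p was 0.0268 and the adjusted p 0.396.

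Of the CDK inhibitors, Cdkn1c passed the test from 10 days on and not at 2 days. This gene, which is imprinted and expressed from the maternal allele, held 1.53 to 2.90 in contralateral muscles (median 1.90). After 2 days the trained muscles held 0.843, 1.74 and 2.03, and the log2 fold change of -0.31 did not pass (adjusted p of 0.281 in limma). After 10 days they held 11.5, 8.99 and 4.35, and after 20 days 5.93, 5.10 and 4.91, all above every contralateral muscle. The differences were 1.51 and 1.03 (standard error 0.21), with adjusted p-values of 6.5e-06 and 0.000781 in limma. After 30 days the values were 3.26, 6.25 and 2.61, 2 of them above all controls, and the difference was 0.65 with adjusted p of 0.0289. The last call rested on 30 days trained replicate 2, without which it was 0.35 with adjusted p of 0.34. With the animal as a block the 30-day difference was 0.38 with adjusted p of 0.324, and it was also lost on the values as deposited (adjusted p of 0.0707). With the most abundant transcript alone the 30-day call was lost too, at 0.71 with adjusted p of 0.0558 in limma. The contralateral muscles themselves had an unadjusted p of 0.0049 across time points in the limma F test (adjusted p of 0.307), with the highest group mean, 2.71 ± 0.31 (SD, n = 3), at 30 days. The table holds Cdkn1c as a pair of transcripts on chromosome 1 between 216661080 and 216663722, and the more abundant of them made up 73.9% of its total. At 2 days the more abundant transcript had a mean of 1.28 in trained muscles and 1.325 over the 12 contralateral muscles. The other had 0.259 against 0.789.

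Cdkn1a, a broad inhibitor of cyclin-dependent kinases, passed the test at no time point against the 12 contralateral muscles. These held 3.63 to 31.9 (median 9.24), and the highest value of all 24 muscles was in a contralateral muscle, replicate 3 of the 30-day group. Trained muscles held 7.82, 23.8 and 16.97 after 2 days, 15.7, 17.8 and 4.95 after 10 days, 7.97, 5.96 and 6.44 after 20 days, and 6.26, 5.96 and 15.6 after 30 days. Every trained muscle lay inside the control range. The log2 fold changes were 0.64, 0.28, -0.39 and -0.11 with a standard error of 0.45, and the adjusted p-values in limma were 0.298, 0.682, 0.599 and 0.899. The 95% intervals were wide, from -0.29 to 1.56 at 2 days and from -1.03 to 0.82 at 30 days, so that a change of over 1.5-fold in either direction at the latest time point lay inside the interval. Compared within rats, the 2-day difference was 1.06 with adjusted p of 0.0241 in the limma fit with an animal block, and all 3 rats had the higher value in the trained muscle, by 0.63, 0.60 and 1.96 on the log2 scale. After 30 days 0 of 3 rats had the higher value in the trained muscle. The gene lies on chromosome 20, from 6351458 to 6358865 on the plus strand, as a pair of transcripts with separate starts. They made up 52.5% and 47.5% of the total.

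Mdm2 showed small differences and was even across muscles. Contralateral muscles held 18.3 to 25.4 (median 21.8). Trained muscles held 17.4, 20.7 and 19.5 after 2 days, 18.4, 21.1 and 17.2 after 10 days, 17.3, 13.4 and 19.7 after 20 days, and 17.05, 17.9 and 16.01 after 30 days. All 12 trained muscles were below the control median, and after 30 days all 3 were below the lowest contralateral muscle. Differences of -0.19 after 2 days and -0.21 after 10 days did not pass (adjusted p of 0.168 and 0.123 in limma; with the most abundant transcript alone the 2-day value passed, at -0.27 and 0.0424), whereas -0.38 after 20 days and -0.35 after 30 days did (standard error 0.10, adjusted p of 0.0074 and 0.0145). The 20-day call was lost without 20 days trained replicate 2 (-0.24, adjusted p of 0.143) and on the values as deposited or with voom on reads (adjusted p of 0.0546 and 0.0611), and the 30-day call without 30 days trained replicate 3 (adjusted p of 0.0912). Blocking on the animal gave -0.30 at 30 days with adjusted p of 0.111 and -0.46 at 20 days with adjusted p of 0.0138.

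Ccng1 was by far the most abundant of the 8 transcripts per unit length, with 420 to 568 in contralateral muscles (mean 504 ± 41.6, SD, n = 12). Trained muscles held 472, 569 and 543 after 2 days, 519, 515 and 376 after 10 days, 435, 304 and 337 after 20 days, and 383, 407 and 489 after 30 days. After 20 days 2 of 3 trained muscles were below every contralateral muscle, and after 30 days also 2 of 3. The difference was -0.50 at 20 days (standard error 0.11, adjusted p of 0.00226 in limma), and 0.066, -0.11 and -0.25 at 2, 10 and 30 days, which did not pass (adjusted p of 0.703, 0.499 and 0.13). On the values as deposited the 30-day difference was -0.47 with adjusted p of 0.00228, a scaling under which the median of all genes was -0.181 at 30 days. With voom on the reads of the gene-level table it was -0.36 with adjusted p of 0.00803. Compared within rats, the 20-day difference was -0.37 with adjusted p of 0.0844.

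By mean level in the contralateral muscles, on this length-scaled measure, Ccng1 (504) was followed by Gadd45g (40.8 ± 44.0, SD, n = 12), Mdm2 (21.98 ± 1.89), Btg2 (13.2 ± 3.74), Gadd45a (13.1 ± 5.47), Cdkn1a (10.9 ± 7.81), Gadd45b (5.34 ± 1.37) and Cdkn1c (2.11 ± 0.53). Btg2, Gadd45a and Cdkn1a overlapped in this order, and Gadd45g overlapped most of the others. After 10 days of training Btg2 stood second with a mean of 74.1 ± 22.8 (SD, n = 3), and Gadd45b, at 21.7 ± 3.39, overlapped Mdm2 at 18.9 ± 1.99.

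Each rat also served as its own control, in a limma fit over all 12 pairs of muscles with the animal as a block. In this fit 2 of the 8 genes besides Btg2 and Gadd45b passed the test. Btg2 was higher in 12 of 12 pairs, by 1.30 to 2.99 on the log2 scale, with a mean difference of 2.22 ± 0.15 (standard error) and adjusted p of 1.84e-08. Gadd45b was also higher in 12 of 12 pairs, by 0.65 to 2.28, with a mean difference of 1.49 ± 0.13 and adjusted p of 1.89e-07. Cdkn1c was higher in 10 of 12 pairs (0.72 ± 0.19, adjusted p of 0.00655) and Mdm2 was lower in 11 of 12 (-0.28 ± 0.062, adjusted p of 0.00167). Over all genes 19.7% were called higher and 20.5% lower in this comparison, beside 3 and 1 of the 8 genes.

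The other 4 genes did not pass over the 12 pairs. Cdkn1a was higher in 6 pairs and lower in 6 (0.11 ± 0.20, adjusted p of 0.71). By time point it was higher in 3, 2, 1 and 0 of 3 pairs at 2, 10, 20 and 30 days, so the mean runs over differences of both directions. Gadd45a was higher in 9 of 12 (0.55 ± 0.27, adjusted p of 0.12), Gadd45g lower in 8 of 12 (-0.42 ± 0.20, adjusted p of 0.106) and Ccng1 lower in 8 of 12 (-0.20 ± 0.079, adjusted p of 0.055). Of these, 3 passed in limma when single pairs were left out: Ccng1 without pair 2 of 2 days, pair 3 of 2 days or pair 2 of 10 days (adjusted p of 0.0306, 0.0427 and 0.0484), Gadd45a without pair 3 of 20 days (0.0483) and Gadd45g without pair 3 of 10 days (0.0496). Accounting for the animal narrowed the standard error of Gadd45g from 0.395 to 0.198, that of Gadd45a from 0.359 to 0.270 and that of Cdkn1a from 0.288 to 0.204, whereas for Btg2 it went from 0.166 to 0.149. The block takes up differences between time points as well as between rats, and these cannot be told apart here.

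**Figure D3:**
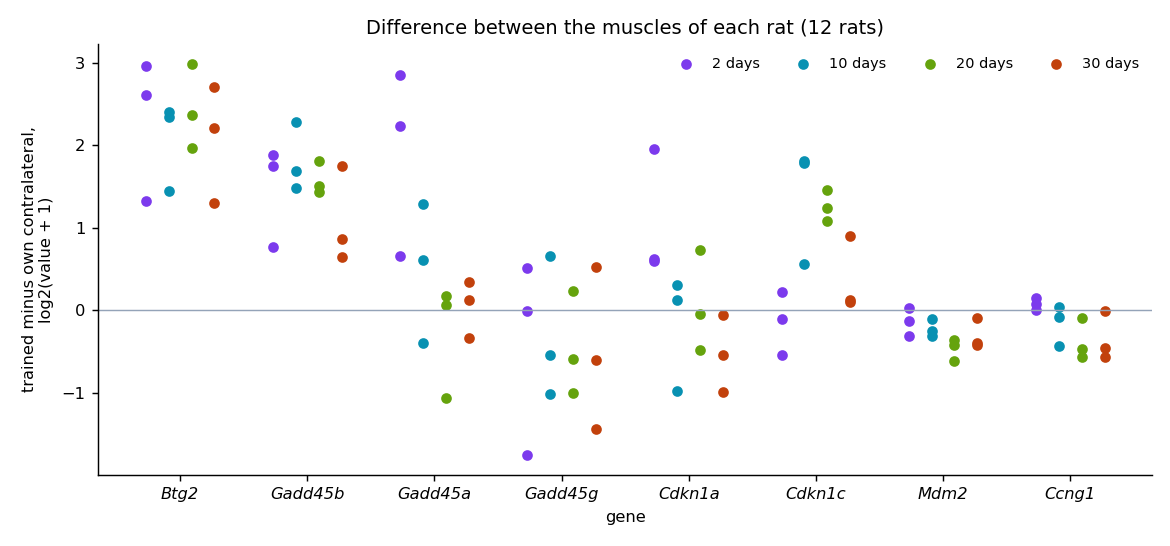
Difference between the trained and the contralateral muscle of each rat (vertical axis, log2 of the normalized value + 1) for the 8 genes, 1 point per rat, coloured by days of training. All 12 points of Btg2 and of Gadd45b lie above 0 and 11 of 12 of Mdm2 below it, while the points of Cdkn1a are split 6 and 6. Of these, 3 of 3 lie above 0 at 2 days and 0 of 3 at 30 days.

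The trained groups were also compared with each other in the same fit. Between 2 and 10 days Cdkn1c was the 1 gene of the 8 that differed, higher at 10 days by 1.81 (standard error 0.26, adjusted p of 0.000717 in limma), where 1.93% of all genes were called. Between 10 and 20 days 0 of the 8 genes passed (0.17% of all genes in limma), with 2 at an unadjusted p under 0.05, namely Gadd45a at -1.61 and Ccng1 at -0.39. Between 20 and 30 days again 0 passed (0.0357% of all genes in limma), with Gadd45b at -0.87 the 1 gene at an unadjusted p under 0.05. Between 2 and 30 days 4 passed, where 15% of all genes were called. Of these Gadd45a (-2.29, adjusted p of 0.00121), Gadd45g (-2.33, adjusted p of 0.0224) and Gadd45b (-0.89, adjusted p of 0.0204) were lower at 30 days, and Cdkn1c was higher (0.95, adjusted p of 0.0158). Such comparisons set different rats against each other. When the difference between the muscles of each rat was compared instead, all 5 calls were lost. Cdkn1c at 10 against 2 days was then 1.53 with adjusted p of 0.103 in limma, and Gadd45a at 30 against 2 days was -1.87 with adjusted p of 0.0738. Gadd45g at 30 against 2 days was -0.087 with adjusted p of 0.956. For Btg2 0 of these comparisons passed in limma, with 30 against 2 days at -0.50 (adjusted p of 0.321, 95% interval -1.16 to 0.17). On the values as deposited 3 more genes were called lower at 30 than at 2 days, namely Btg2 (-0.83, adjusted p of 0.0488 in limma), Mdm2 (-0.48, adjusted p of 0.0378) and Ccng1 (-0.65, adjusted p of 0.00108). Some single muscles left out also cost calls at 30 against 2 days. These were Gadd45b (adjusted p of 0.0567 to 0.135 in limma), Gadd45g (0.064 to 0.109) and Cdkn1c (0.071 and 0.116). Without 2 days trained replicate 1, Gadd45a was called lower at 10 than at 2 days (-1.63, adjusted p of 0.0363).

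Across the contralateral groups alone 0 of the 8 genes passed the limma F test, where 0.0666% of 10517 genes did. At an unadjusted p under 0.05 stood 2 of them, Cdkn1c and Gadd45g.

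Of the 62 genes on 5 lists of related genes, 49 passed the filter. Over the 49, limma called 13 higher and 9 lower at 2 days, 16 and 7 at 10 days, 15 and 5 at 20 days, and 10 and 6 at 30 days, to be read beside the shares of all genes given above. Genes that passed the filter mainly through trained muscles, named with their lists below, could hardly be called lower.

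Of 19 tested genes of the stress and DNA damage response besides the 8 genes, 5 were higher and 4 lower at 2 days, 5 and 2 at 10 days, 5 and 2 at 20 days, and 4 and 1 at 30 days. The list's median log2 fold change lay between -0.035 and 0.085 at all time points, close to that of all genes. Eda2r, a member of the TNF receptor family that binds ectodysplasin A2, was higher throughout, by 1.91, 1.97, 0.90 and 1.27, from a mean of 0.792 in contralateral muscles to 5.84 at 10 days (adjusted p between 5.09e-08 and 0.00147 in limma). Gdf15, a stress hormone of the TGF-beta family, was highest at 2 days, with a mean of 3.33 against 0.062 (log2 fold change 1.89, adjusted p of 1.62e-06 in limma). With so low a contralateral level Gdf15 passed the filter through trained muscles alone, so only a rise could be called. Phlda3, an inhibitor of Akt, was higher by 0.91, 1.18 and 0.69 up to 20 days, and Plk2, a polo-like kinase, by 0.81, 0.89, 0.60 and 0.58 (adjusted p of 0.0275 at 30 days, 0.11 with the animal as a block). Rrm2b, a small subunit of ribonucleotide reductase, was lower at 2 days by -1.19 (adjusted p of 0.00116) and Sesn1, a sestrin that restrains mTORC1, by -0.86 (adjusted p of 0.000136). Ei24, a protein of the endoplasmic reticulum, was lower at all 4 time points, by -0.32 to -0.55 (adjusted p of 0.059 and 0.12 at 20 and 30 days with the animal as a block), and Tigar, a fructose bisphosphatase, at 2 and 10 days.

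Among the other CDK inhibitors 4 of 6 were tested. Cdkn3, a phosphatase that acts on CDKs, was higher at 2, 10 and 20 days by 1.49, 1.07 and 0.64, from a mean of 0.076 in contralateral muscles to 2.15 at 2 days. Cdkn3 passed the filter through trained muscles alone, so only a rise could be called, and it enters the median of the list. Cdkn2b (p15) was higher over the same time points by 1.35, 1.07 and 1.14, and Cdkn2c (p18) at all 4 by 0.50 to 0.72, of which the block left the 2-day call alone (adjusted p of 0.018, 0.13, 0.21 and 0.059). Cdkn1b (p27), the third gene of the family of Cdkn1a and Cdkn1c, was lower at 2, 10 and 30 days (-0.57, -0.31 and -0.36, adjusted p of 0.000242, 0.0277 and 0.0173 in limma). With the animal as a block its adjusted p was 0.005 at 2 days, 0.05 at 10 days, at the threshold, and 0.28 at 30 days.

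The cyclins and kinases on which the inhibitors act were represented by 9 tested genes, of which 4 were higher and 0 lower at 2, 10 and 20 days, and 2 higher and 1 lower at 30 days. Cdk1, which drives mitosis, was higher by 1.10, 1.32 and 1.20 up to 20 days, from 0.27 in contralateral muscles to 2.17 at 10 days, and not at 30 days (0.34, adjusted p of 0.123 in limma). At this contralateral level Cdk1 passed the filter mainly through trained muscles, and a fall could hardly be called. The same holds for Ccna2 and Ccnb1, markers of dividing cells that are also on this list. The counts of higher and lower genes on it thus follow in part from the filter. Ccnd1 (cyclin D1) was higher at all 4 time points, by 0.84, 1.30, 1.20 and 0.77, and so was Pcna, the sliding clamp that GADD45 proteins and p21 bind, by 0.42 to 0.63 (adjusted p of 0.065 at 30 days with the block). Ccnd3 was lower at 30 days (-0.42, adjusted p of 0.0157, 0.21 with the animal as a block).

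Of the 7 tested genes of the BTG and TOB family, its deadenylase partners and Ccng2, Btg1, the closest relative of Btg2, was higher at all 4 time points. Its log2 fold changes of 0.47, 0.78, 0.71 and 0.74 were smaller than those of Btg2, from a mean of 14.6 in contralateral muscles to at most 26.1. Tob1 was higher from 10 days on (0.49, 0.72 and 0.47) and Btg3 at 10 and 20 days (0.65 and 0.52). Tob2 was lower at 30 days (-1.27, adjusted p of 0.0104 in limma), Ccng2 at 2 days (-0.43, adjusted p of 0.0145), and Cnot7, a catalytic subunit of the deadenylase, at 10 and 20 days (-0.33 at both). The calls of Ccng2 and Cnot7 were lost with the animal as a block (adjusted p of 0.084, 0.13 and 0.18).

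Of 10 tested partners of GADD45 proteins in p38 and JNK signalling, 0 were higher and 3 lower at 2 days, 1 and 3 at 10 days, 0 and 2 at 20 days, and 1 and 2 at 30 days. The kinases Mapk14 (p38 alpha) and Mapk9 (JNK2) were lower at all 4 time points, Mapk14 by -0.54, -0.61, -0.45 and -0.47 and Mapk9 by -0.52, -0.55, -0.58 and -0.38 (adjusted p of at most 0.0101 in limma). All of these calls also passed with the animal as a block, with adjusted p of at most 0.031. Map2k6, an activator of p38, was higher at 10 and 30 days (0.34 and 0.35), calls that were lost with the block (adjusted p of 0.09 and 0.3).

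**Figure D4:**
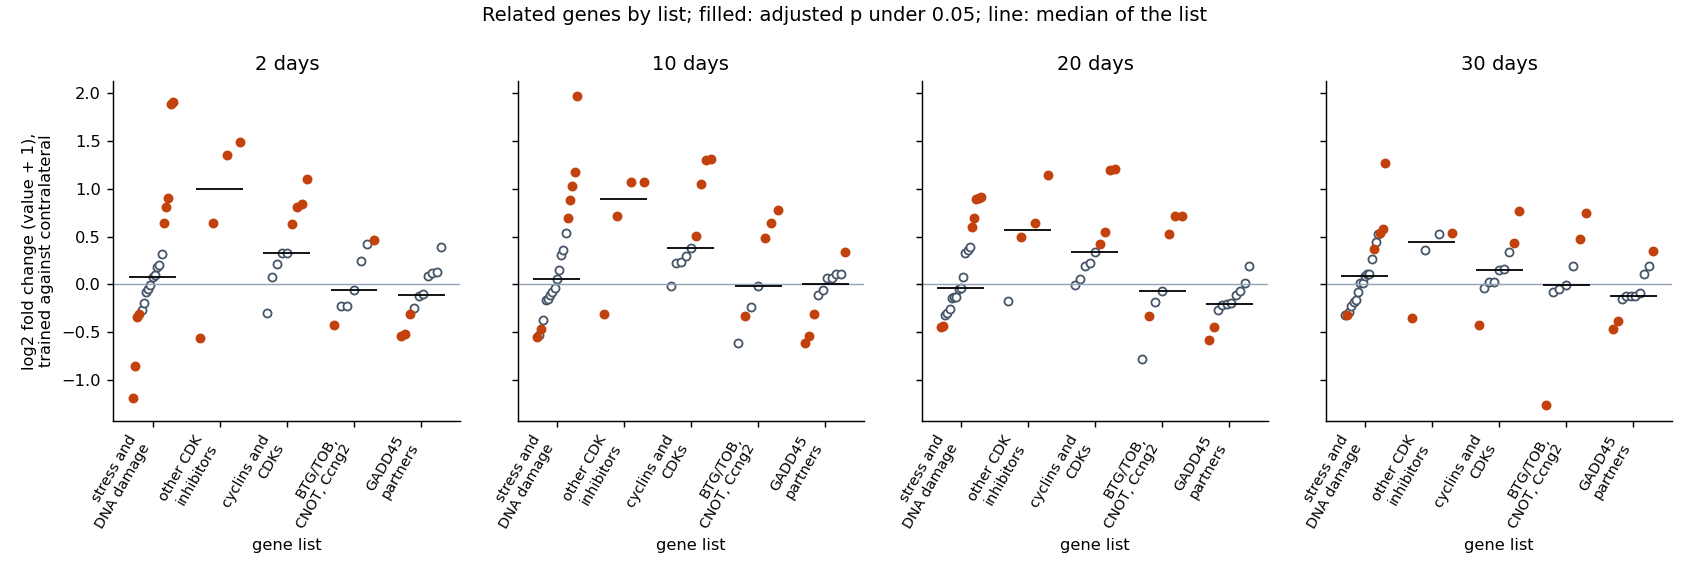
Log2 fold change (vertical axis, log2 of the normalized value + 1) of the tested genes of 5 lists in trained against contralateral muscles, 1 panel per time point, with 1 point per gene, filled where the adjusted p was under 0.05, and a line at the median of the list. The median of the 4 tested other CDK inhibitors, without Cdkn1a and Cdkn1c, goes from 0.995 at 2 days to 0.441 at 30 days. It includes Cdkn3, for which only a rise could be called. The median of the stress and DNA damage genes stays within 0.1 of 0.

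Most tested markers of macrophages and fibroblasts were higher in trained muscle at every time point, and those of dividing cells up to 20 days. The summed level of 8 macrophage markers was 9.29 to 24.5 in contralateral muscles and 25.4 to 62.0, 29.3 to 66.6, 40.2 to 46.8 and 36.7 to 50.7 in the trained groups, and of 7 tested markers 5, 6, 7 and 7 were higher. The sum of 4 fibroblast markers was 70.1 to 242 in contralateral muscles and 285 to 457, 497 to 939, 545 to 590 and 339 to 397 in trained ones, and 3, 4, 4 and 4 of the 4 were higher. The sum of 4 markers of dividing cells was 0.116 to 1.103 in contralateral muscles and 2.48 to 6.19, 2.94 to 6.001, 1.32 to 2.76 and 0.826 to 1.58 in trained ones, and 3, 3, 2 and 0 of the 3 tested were higher. Even their sum hardly exceeded the filter value of 1 in contralateral muscles. The tested markers of dividing cells thus passed the filter mainly through trained muscles, and a fall could hardly be called. Satellite cell markers, 3 of 4 tested, were higher for 2 genes at 2 days, 1 at 10 days and 0 later, with sums of 25.9 to 62.0 at 2 days against 20.2 to 46.2 in contralateral muscles. Fibre markers were lower for 4, 4, 4 and 3 of 7 tested and higher for 1, 3, 2 and 1. Of 4 endothelial markers tested, 0 were higher and 1 lower at 2 days, then 2, 1 and 1 higher. Of the 3 Schwann cell markers tested 2 were lower at 30 days and 0 passed in limma before, with Sox10 at a median under 0.1. Of 2 red blood cell and 2 adipocyte markers 0 passed at any time point in limma. The part of these cells in the differences of the 8 genes was not tested.

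The genes whose values over the 24 muscles were most like those of each member were taken among genes with a mean of at least 10, by Pearson's r on the log2 scale. Muscles of the same rat and groups that share a treatment stand behind these values, so that they only describe the data. For Btg2 they were Atf3 (r of 0.978), Otud1 (0.968) and Ppp1r15a (0.964), and for Gadd45b they were Mafk (0.959), Midn (0.952) and Cd81 (0.935). Btg2 and Gadd45b had an r of 0.882 with each other. For Cdkn1c they were Igf2 (0.89), Serpine2 (0.825) and Habp4 (0.824). For Gadd45a they were Pdia6 (0.872), Ankrd2 (0.85) and Usp5 (0.847). Lower values were found for Mdm2 (Txnip at 0.851), Ccng1 (Ppp1r2 at 0.825) and Gadd45g (Zfp36 at 0.815), and the lowest for Cdkn1a, where the most alike gene, Pigx, had an r of 0.655.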

How the data were processed

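RNA sequencing of 24 rat tibialis anterior muscles was analysed from the deposited tables. The authors trimmed reads, aligned them with STAR in Partek Flow to Rnor_6.0 (rn6 in the submitters' processing notes) and quantified Ensembl transcripts. They deposited TPM-type values for 20027 transcripts, with a median total of 634431 per sample. The authors also deposited a gene-level table whose values are a signal per gene span and sample, and the p-values and fold changes in it were not used, nor was a table of enrichment results. The tables used here hold no counts.

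Transcript values were divided by median-of-ratios factors from 16230 transcripts above 0 in all samples, as the authors' methods name this normalization, and summed per gene symbol. Genes were kept (11196) where 3 or more muscles reached 1. The fit of log2(value + 1) used limma 3.58.1 under R 4.3.3, with 12 contralateral muscles as 1 control group and 3 muscles per trained group, a moderated test and Benjamini-Hochberg adjustment. The 12 pairs were fitted with animal as a block. Python 3.11.15, numpy 2.4.6, pandas 2.3.3 and matplotlib 3.10.9 were used otherwise. Fits were tested on simulated data.

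The animal identifiers in the labels pair the muscles. Deviations from group means had a median r of 0.174 within an animal (12 pairs, lowest 0.028) and -0.0096 between animals. Of 276 pairs of libraries 0 were identical. Rats are separate animals, but the main fit treats both muscles of a rat as independent and pools the controls of all time points. Its p-values thus rest on the spread between muscles within these groups, which among controls includes differences between time points. In the fits with the animal as a block they rest on the spread of the differences within rats.

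The 8 genes and the lists were chosen with earlier results of these data known. From each list at most the 2 largest rises and 2 largest falls per time point among called genes are named by rule. Sox10 is named outside it. The result of 1 further list is not reported here. Alternatives were the values as deposited, a pseudocount of 0.1, no filter, a mean of at least 10, a threshold of 0.01, animal as a block, time-matched controls, the most abundant transcript, an intensity trend, the gene-level table and each muscle left out. After seeing the data, limma voom on reads recovered from the gene-level table was added. Reads lay within 0.05 of a whole number for 72.6% of values under 150 reads, where evenly spread fractions would give 10%. Reads carry no molecular identifiers, so read numbers speak of counting error only.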

Additional observations from a re-analysis of the deposited data

Results flagged for a closer look

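Differences between trained groups that passed the limma test stood out for 5 results of the 8 genes. Cdkn1c was higher after 10 than after 2 days of training by 1.81 on the log2 scale (adjusted p of 0.000717) and after 30 than after 2 days by 0.95 (adjusted p of 0.0158). Gadd45a was lower after 30 than after 2 days, with a difference of -2.29 (adjusted p of 0.00121), as were Gadd45b at -0.89 (adjusted p of 0.0204) and Gadd45g at -2.33 (adjusted p of 0.0224). With the animal as a block none of the 5 passed in limma, with adjusted p of 0.103, 0.417, 0.0738, 0.591 and 0.956 in this order, and the contralateral muscles of Cdkn1c and Gadd45g also differed between time points at an unadjusted p under 0.05. The results of Cdkn1c, Gadd45b and Gadd45g at 30 against 2 days were also lost without some single muscles. No single muscle was tested as standing apart, since all groups but the pooled controls hold 3 muscles.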

How the results depend on the processing

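Over the alternatives Btg2 was called higher at all 4 time points in each of them, including every muscle left out, and Gadd45b at 2, 10 and 20 days. The later and smaller calls did not hold as well. Of all values of the 8 genes against contralateral muscles under an alternative, 771 had the same direction and call, 35 lost the call, 4 gained it and 18 changed sign.

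Counts of called genes at 2, 10, 20 and 30 days were 3235, 3240, 2393 and 2304. They became 1654, 1420, 1064 and 1155 with a mean of at least 10, 1958, 2050, 1420 and 1296 at a threshold of 0.01, 1779, 1367, 1061 and 1295 in the gene-level table, and 1604, 1244, 963 and 1478 with voom on its reads. These settings test fewer genes or apply a stricter threshold. Time-matched controls gave 2007, 1589 and 1121 at 10, 20 and 30 days. Of the 8 genes, 2 in place of 5 were called at 30 days at a threshold of 0.01, with time-matched controls and with the animal as a block.

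With the animal as a replicate block 1377 genes were called at 30 days, and between trained groups 7 (10 against 2 days), 1 (20 against 10), 0 (30 against 20) and 314 (30 against 2). The calls of the 8 genes that the block changed are given with their results, and the pairing changed no other call of theirs against contralateral muscles. It turned the sign of Gadd45g at 2 days (-0.41), Cdkn1a at 10 and 20 days (-0.18 and 0.070) and Gadd45a at 30 days (0.046), as did time-matched controls with the same values. Between trained groups it turned Gadd45g (0.12) and Btg2 (-0.23) at 10 against 2 days, Cdkn1a (0.25) and Btg2 (0.37) at 20 against 10, and Cdkn1a at 30 against 20 (-0.60). None of these was called.

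The most abundant transcript gave 0.012 for Cdkn1c at 2 days, a call for Mdm2 at 2 days (-0.27) and 0.038 for Cdkn1a at 30 days. It also lost the call of Cdkn1c at 30 days (0.71, adjusted p of 0.0558 in limma). Values as deposited gave 0.0082 for Ccng1 at 10 days and -0.18 for Mdm2 at 30 against 20 days, and they called 43 (20 against 10), 9 (30 against 20) and 3294 (30 against 2) genes. A pseudocount of 0.1 gave 1 and 0 for the first 2 of these. Cdkn1c was under the mean of 10 and could not be fitted with that filter. The F test called 3 genes with no filter. The cause of these shifts was not tested.

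With single muscles left out, counts were 1513 to 3505, 2147 to 3296, 1734 to 2500 and 1472 to 2440 against contralateral muscles, and 66 to 488 (10 against 2 days), 2 to 95 (20 against 10), 0 to 9 (30 against 20) and 724 to 2134 (30 against 2) between trained groups. The lowest came without 2 days trained replicate 2 (1513 and 724), 10 days trained replicate 1 (2147 and 66) and 30 days trained replicate 2 (1472). Of the 8 genes 3 to 5 were called at 30 days, 3 without any 1 of the trained muscles, and the F test called 0 to 12 genes. Results that changed sign, each not called, were Cdkn1a at 10 days (-0.022 to 0.81) and 30 days (-0.51 to 0.11), Gadd45a at 30 days (-0.40 to 0.091), Gadd45g at 10 days (-0.36 to 0.025), Ccng1 at 10 days (-0.19 to 0.040), and Cdkn1a over the 12 pairs (-0.062 to 0.21). Between trained groups they were Btg2 (-0.075 to 0.37), Cdkn1a (-0.77 to 0.17), Gadd45b (-0.072 to 0.36) and Mdm2 (-0.10 to 0.038) at 10 against 2 days, Btg2 (-0.31 to 0.21) and Gadd45g (-0.63 to 0.058) at 20 against 10, and Cdkn1a (-0.12 to 0.50) and Mdm2 (-0.11 to 0.15) at 30 against 20.

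DESeq2 was not run, since the tables used hold no counts. With 3 rats per time point, a result that was not called does not show the absence of a difference inside its interval.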
